A study of Mus musculus with 8 samples.

Results

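The TSC22 domain family of the mouse has 4 genes, Tsc22d1, Tsc22d2, Tsc22d3 and Tsc22d4, and its transcripts were followed here in platelet RNA. The members were taken by gene symbol, 4 of the 55487 genes in the deposited tables, and the family was picked because Tsc22d1 is among the most abundant transcripts. The family was thus selected on its measured level, and levels are given as a description. The samples were platelets of 8 male mice aged 13 weeks, 4 labelled heterozygous for Dnmt3a (Dnmt3a+/-) and 4 labelled as wild-type (WT) littermates, with 1 library per mouse. Dnmt3a encodes a de novo DNA methyltransferase. Neither the kind of mutant allele nor the strain of the mice is given in the sources used here, and the platelets of every mouse went through the same depletion with beads against Ter119 and CD45.

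TSC22 proteins share a conserved TSC box followed by a leucine zipper, through which they form homodimers and heterodimers. Several genes of the family give a long and a short protein from separate start sites, and the long forms bind the pseudokinases of the NRBP family and the WNK kinases of cell volume control. Tsc22d1 was first described as a transcript stimulated by transforming growth factor beta, and Tsc22d3 encodes GILZ, the glucocorticoid-induced leucine zipper that restrains NF-kappaB, AP-1 and RAF signalling. Platelets have no nucleus, and their own transcripts are inherited from megakaryocytes.

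Tsc22d1 (chromosome 14, 76414961 to 76507765, plus strand, GRCm38; ENSMUSG00000022010) has 16 annotated transcripts that begin at widely spaced starts. The upstream sequences of its long and its short start are shown because the data below bear on which of them the transcripts used. The long transcript Tsc22d1-204 (4999 bases) begins at 76414961, and the short transcript Tsc22d1-201 (1762 bases) begins at 76504478. Each line gives the 200 bases before that start, 5′ to 3′ on the plus strand, from RefSeq's promoter sequences of GRCm38.p6, at chr14:76414761-76414960 and chr14:76504278-76504477. Capitals mark CpG dinucleotides, the sites that DNA methyltransferases act on.
Tsc22d1 long start: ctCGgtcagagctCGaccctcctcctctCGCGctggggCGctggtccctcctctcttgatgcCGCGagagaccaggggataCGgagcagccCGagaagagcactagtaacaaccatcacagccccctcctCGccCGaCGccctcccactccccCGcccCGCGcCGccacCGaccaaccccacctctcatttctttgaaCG
Tsc22d1 short start: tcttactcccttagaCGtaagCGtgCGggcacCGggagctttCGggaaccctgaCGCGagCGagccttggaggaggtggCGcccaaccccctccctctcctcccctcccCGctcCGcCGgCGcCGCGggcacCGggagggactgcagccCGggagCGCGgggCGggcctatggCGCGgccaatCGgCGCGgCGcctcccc
The stretch before the short start held 26 CpG dinucleotides and 75% G and C, and that before the long start held 18 and 66.5%.

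RefSeq's table holds 5 promoter windows of 300 bases for Tsc22d1 and 3 for Tsc22d3. The window at the short start (76504260 to 76504559) held 35 CpG dinucleotides, and 93.0% of the 32851 mouse promoter windows in the table held fewer. The Tsc22d1 windows at the long starts (76414711 to 76415010 and 76415571 to 76415870) held 27 and 31, where 84.5% and 89.4% of windows held fewer. The Tsc22d3 windows on chromosome X, starting at 140542619, 140548522 and 140600473, held 16, 3 and 15, where 67.0%, 23.3% and 65.4% of windows held fewer. Windows at the start of Tsc22d3-201 (140543187) and at the starts of Tsc22d2 and Tsc22d4 were not analysed here, so the motif counts do not cover them. Of the motifs searched on both strands, GGGCGG, bound by SP1, occurred 2 times in the window at the short start. It occurred 1 and 2 times in the windows at the long starts and is present in 35.7% of all windows. AGATAA, bound by GATA factors, was in none of the 8 family windows and is in 11.2% of all. The full glucocorticoid receptor element, AGAACA and TGTTCT set 3 bases apart, was in none of these 8 windows either, and is in 0.00913% of all windows. Its separate arm AGAACA, which overlaps the full element by construction, occurred 1 time in the window of the distal Tsc22d3 start (140600473 to 140600772) and 1 time in a Tsc22d1 window (76503976 to 76504275), and is in 19% of all windows.

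Total counts per library ran from 15185218 to 22160394, and all 12 platelet markers looked for were present, with Pf4 at 16053 to 20729 TPM (transcripts per 1000000, corrected for length). Counts of Dnmt3a itself were below every WT value in the libraries labelled Dnmt3a+/- replicates 1 and 2 (9.96 and 11.5 CPM, counts per 1000000 after scaling, against 18.2 to 22.1) and not in replicates 3 and 4 (24.2 and 19.5 CPM), so directions are given between labels. Markers of T and NK cells took at most 0.00101% of counts and those of neutrophils at most 0.000187%, with Cd3e, Cd3g, Camp and Elane at 0 in all 8 libraries. Within the T and NK list, however, Nkg7 was at 8.63 to 18.8 TPM and Trbc2 at 3.23 to 7.50 TPM. B cell markers took at most 0.00113%. Monocyte and macrophage markers took 0.342% to 0.648%, nearly all of it Lyz2, lysozyme, at 3233 to 6073 TPM, while the other 9 listed genes reached at most 2.39 TPM. WT replicate 1 stood apart with 2.03% of counts in erythroid markers against 0.203% to 0.486% elsewhere, and WT replicate 3 with 24.8% in mitochondrially encoded genes against 16.7% to 18.96%. Between labels, the share of hepatocyte markers was 0.00188% to 0.145% (WT) against 0.000277% to 0.0132% (Dnmt3a+/-), and all 9 that were tested had negative log2 fold changes. The part of these other cell types in the values of the TSC22 genes was not tested. In bulk platelet RNA, fewer platelets of a kind and less RNA per platelet cannot be told apart.

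Tsc22d1 supplied nearly all of the family's transcripts. It was at 9328.5, 12667, 9929 and 12312 TPM (WT replicates 1 to 4) and at 10141, 13555, 12280 and 12636 TPM (libraries labelled Dnmt3a+/-, same order). The groups overlapped, and the lowest values of each, WT replicates 1 and 3 and the library labelled Dnmt3a+/- replicate 1, lay at 10141 TPM or below. Tsc22d1 made up 99.4% to 99.6% of the family's summed TPM in the 8 libraries.

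The order Tsc22d1, Tsc22d3, Tsc22d4, Tsc22d2 held by TPM in every library, with no overlap between neighbours over the 8 libraries. Tsc22d3 (chromosome X, 140539528 to 140600659, minus strand; ENSMUSG00000031431), the GILZ gene, was at 35.1, 42.7, 36.0 and 42.9 TPM in WT replicates 1 to 4. It was at 36.6, 41.2, 39.5 and 44.7 TPM in the libraries labelled Dnmt3a+/- replicates 1 to 4. Both groups covered nearly the same range, so GILZ was present at a moderate and even level. The ratio of Tsc22d1 to Tsc22d3 in TPM was 281 ± 13.6 in WT and 300.2 ± 24.5 in the other group (SD, n = 4).

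Tsc22d4 (chromosome 5, 137745730 to 137768450, plus strand; ENSMUSG00000029723), a member that dimerizes with its paralogues, was at 16.6, 21.7, 13.95 and 12.2 TPM in WT replicates 1 to 4. It was at 19.4, 15.1, 22.5 and 15.2 TPM in the libraries labelled Dnmt3a+/- replicates 1 to 4. High and low libraries occurred under both labels. Its level was below that of Tsc22d3 by a factor of 2.55 ± 0.70 in WT and 2.33 ± 0.60 in the other group (SD, n = 4).

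Tsc22d2 (chromosome 3, 58414715 to 58466783, plus strand; ENSMUSG00000027806) was barely detected. Its counts stood at 5, 24, 28 and 21 (WT replicates 1 to 4) and at 25, 21, 25 and 43 (libraries labelled Dnmt3a+/-, same order). These correspond to 0.12 to 0.57 TPM and 0.18 to 1.01 TPM, where the deposited values carry only 2 decimals. Tsc22d2 passed the filter on low counts, as did the other members, so all 4 were tested.

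**Figure D1:**
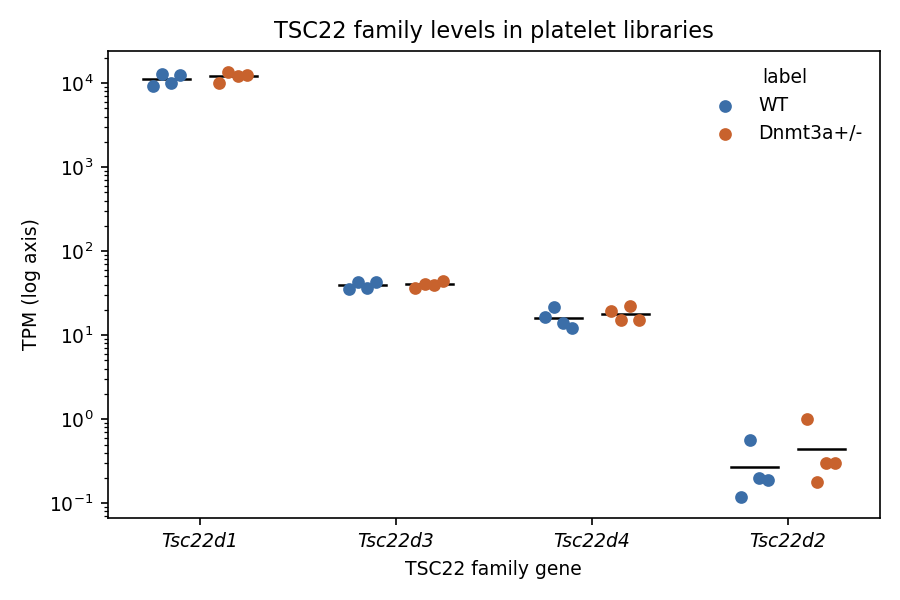
TPM (log axis) of the 4 TSC22 genes, with 1 point per library, blue for WT and orange for libraries labelled Dnmt3a+/-, and a bar at each mean. Tsc22d1 sits at 9328.5 to 13555 TPM, Tsc22d3 at 35.1 to 44.7, Tsc22d4 at 12.2 to 22.5 and Tsc22d2 at 0.12 to 1.01, and the groups overlap for every gene.

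How high Tsc22d1 ranked depended on whether length was taken into account. By mean CPM over the 8 libraries, which is not corrected for length, it was the 10th most abundant gene (16929 CPM), just inside the 10 that brought the family to attention. Gng11, a G protein gamma subunit, stood just above it at 17437 CPM, and B2m, the light chain of MHC class I, just outside at 15494 CPM. By mean TPM it ranked 18 at 11606 TPM, between Gm28437, a predicted gene model, at 11727 and mt-Cytb at 10919 TPM. In individual libraries its rank ran from 6 to 12 by CPM and from 14 to 22 by TPM. Without mitochondrially encoded genes it ranked 14 by TPM.

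The genes above Tsc22d1 on both scales give its level a context. They included mt-Rnr1 and mt-Rnr2, the mitochondrial ribosomal RNAs, Ctla2a, a cysteine protease inhibitor, Tmsb4x, thymosin beta 4, Fth1, the ferritin heavy chain, Cd9, a tetraspanin, the chemokine gene Ppbp and Gng11. In TPM, Tsc22d1 was at 0.63 ± 0.05 of Pf4, platelet factor 4, in WT and 0.65 ± 0.04 in the other group (SD, n = 4). It exceeded Itga2b, integrin alpha IIb, by 4.12 ± 0.94 times in WT and 4.78 ± 1.35 times in the other group.

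**Figure D2:**
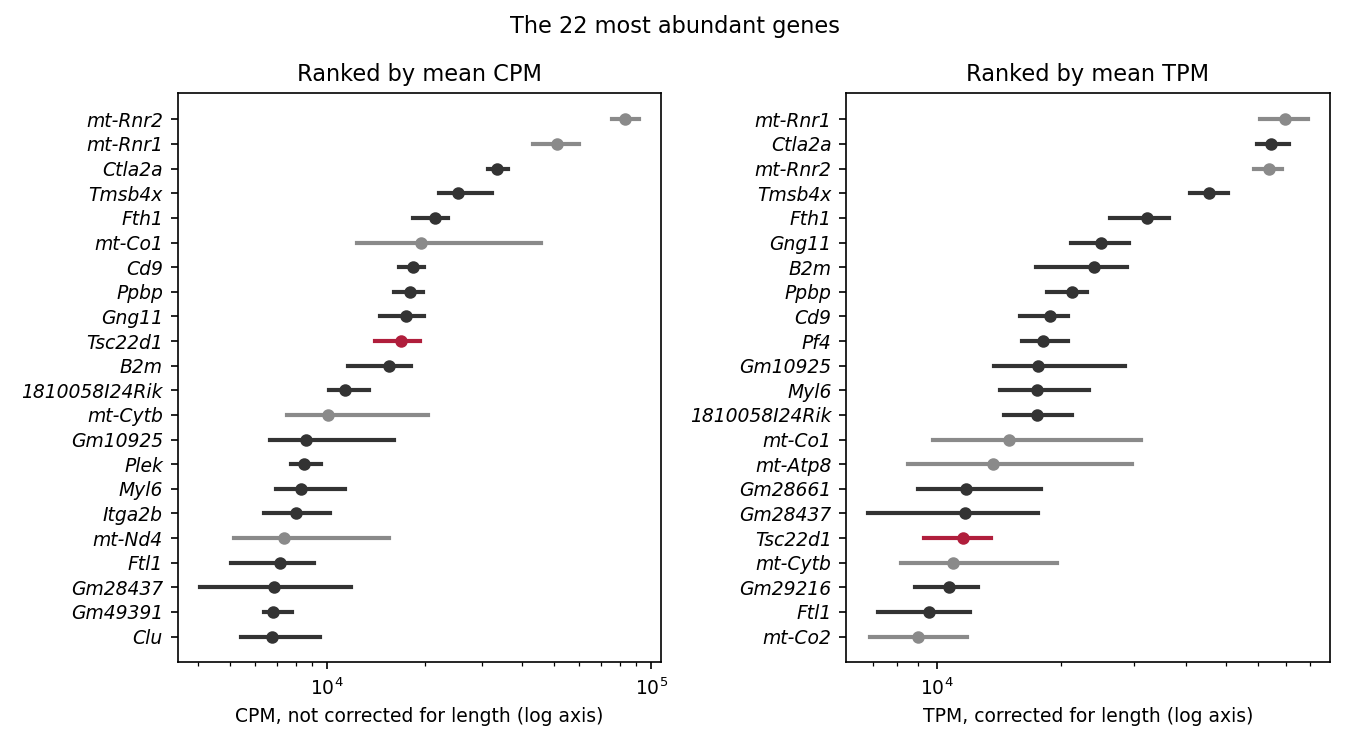
The 22 most abundant genes by mean CPM (left) and by mean TPM (right) on log axes, where points are means over 8 libraries, lines run from the lowest to the highest library, red is Tsc22d1 and grey marks mitochondrially encoded genes. Tsc22d1 is the 10th gene on the left and the 18th on the right.

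No member of the family passed the test between labels. Of the 4 members 3 had positive and 1 a negative log2 fold change (median 0.06, against -0.005 over all tested genes), and for 0 of 4 did the CPM values of the labels fail to overlap, against 2.54% of all tested genes. For Tsc22d1 the CPM values were 13991, 16956, 16759 and 17657 (WT replicates 1 to 4) and 15276, 19356, 17870 and 17567 (libraries labelled Dnmt3a+/-, same order). The groups overlapped, and WT replicate 1 was the lowest of the 8. The log2 fold change was 0.10 (SE 0.12, 95% interval -0.16 to 0.36, edgeR adjusted p = 0.998), which as a fold is 1.07 with limits of 0.895 and 1.28. Over all genes edgeR called 0 of 7362 (0.0%), against 362 (4.92%) at an unadjusted p under 0.05, and DESeq2 called 15. Tsc22d1 was among the less variable genes, with a biological coefficient of variation of 0.146 where 7.57% of tested genes had a smaller one.

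Tsc22d3 differed least between the labels. Its CPM values were 59.0, 63.9, 68.0 and 69.0 (WT replicates 1 to 4) and 62.0, 65.4, 64.4 and 70.1 (libraries labelled Dnmt3a+/-, same order). The log2 fold change was 0.01 (SE 0.09, 95% interval -0.20 to 0.22, edgeR adjusted p = 0.998). Its sign turned without WT replicate 1 (-0.03) and without the library labelled Dnmt3a+/- replicate 4 (-0.02). GILZ had the smallest biological coefficient of variation of the family, 0.136, with 3.56% of tested genes below it.

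For Tsc22d4 the sign differed between the fits on counts and on TPM. In CPM it was at 36.9, 38.2, 30.9 and 27.1 (WT replicates 1 to 4) and at 37.1, 26.1, 37.5 and 22.2 (libraries labelled Dnmt3a+/-, same order), so the range of the second group enclosed most of the first. The log2 fold change on counts was -0.12 (SE 0.19, 95% interval -0.53 to 0.30, edgeR adjusted p = 0.998). On log2(TPM + 1) with limma it was 0.17 (adjusted p = 0.999), of the opposite sign, and without the library labelled Dnmt3a+/- replicate 4 the count value was 0.01. Tsc22d2 had a log2 fold change of 0.42 (SE 0.40, 95% interval -0.46 to 1.30, edgeR adjusted p = 0.998), which shrank to 0.11 without WT replicate 1, the library with 5 counts.

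The TPM and the count of a gene differ by the length of the transcripts that its reads were assigned to, so their ratio gives that length. The ratio was converted to bases in each library with a line through 274 to 308 genes that have 1 annotated transcript. The median error of those genes was 0.364% to 2.07% of their annotated length, with WT replicate 3 the least exact. The value is an average over a gene's transcripts, so different mixtures can give the same length. This measure played no part in the choice of the members.

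The implied length of Tsc22d1 was close to that of its short transcript Tsc22d1-201 in every library. It was 1746, 1751, 1727 and 1751 bases (WT replicates 1 to 4) and 1755, 1749, 1754 and 1742 bases (libraries labelled Dnmt3a+/-, same order). This transcript, which begins after the short-start stretch printed above, is annotated at 1762 bases, and the long ones Tsc22d1-202 and Tsc22d1-204 at 4818 and 4999. All 8 libraries lay below the length of Tsc22d1-201 by a small margin. Another coding transcript, Tsc22d1-214 (1476 bases), begins at 76504214, before the short-start stretch, and its part in these lengths was not tested. The labels did not differ beyond the spread (6.31 bases longer in those labelled Dnmt3a+/-, exact permutation p = 0.486, adjusted p = 0.648).

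For GILZ the implied length was 1940, 1942, 1919 and 1948 bases (WT replicates 1 to 4) and 1957.5, 1931, 1950.3 and 1947 (libraries labelled Dnmt3a+/-, same order). The nearest annotated transcript is Tsc22d3-201 (1974 bases, coding), which spans 140539528 to 140543187, while Tsc22d3-203 from the distal start at 140600659 has 1552 bases. The labels differed by 9.07 bases (exact permutation p = 0.371, adjusted p = 0.648).

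Tsc22d4 was the member whose implied lengths did not overlap between the labels. It was 2523, 2261, 2232 and 2641 bases in WT replicates 1 to 4, a mean of 2414 ± 199.8 (SD, n = 4). In the libraries labelled Dnmt3a+/- replicates 1 to 4 it was 2190.0, 2080.3, 1990.5 and 1829 bases, a mean of 2023 ± 152.5. All 4 were below every WT value, although the closest pair (2232 in WT replicate 3 and 2190.0) differed by less than the 2.07% median error of WT replicate 3. That error comes from genes with 1 annotated transcript. It does not cover the error of dividing reads among the 9 transcripts of Tsc22d4, which was not measured. The difference was -392 bases, or -16.2% of the WT mean. The exact two-sided permutation test gave p = 0.0286, the smallest that 70 arrangements allow. Adjusted over the 4 members this was 0.114, which did not pass. A member that separated alone could not reach an adjusted p under 0.05, so the adjusted value cannot decide the question.

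Among 2642 genes with several annotated transcripts and at least 100 counts in every library, 2.27% had implied lengths that did not overlap between the labels, and 0.984% were shorter in those labelled Dnmt3a+/-. A larger relative fall than that of Tsc22d4 was seen in 0.757% of them. The annotated transcripts of Tsc22d4 include Tsc22d4-202 and Tsc22d4-203, coding transcripts of 3983 and 2730 bases from the upstream start, and Tsc22d4-201 and Tsc22d4-204 of 1043 bases each from an internal start. The implied length of Tsc22d4 lay between these lengths in all 8 libraries. Tsc22d2 gave 1889 to 8551 bases from at most 43 counts, a spread that leaves its transcript mix undetermined at this depth.

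**Figure D3:**
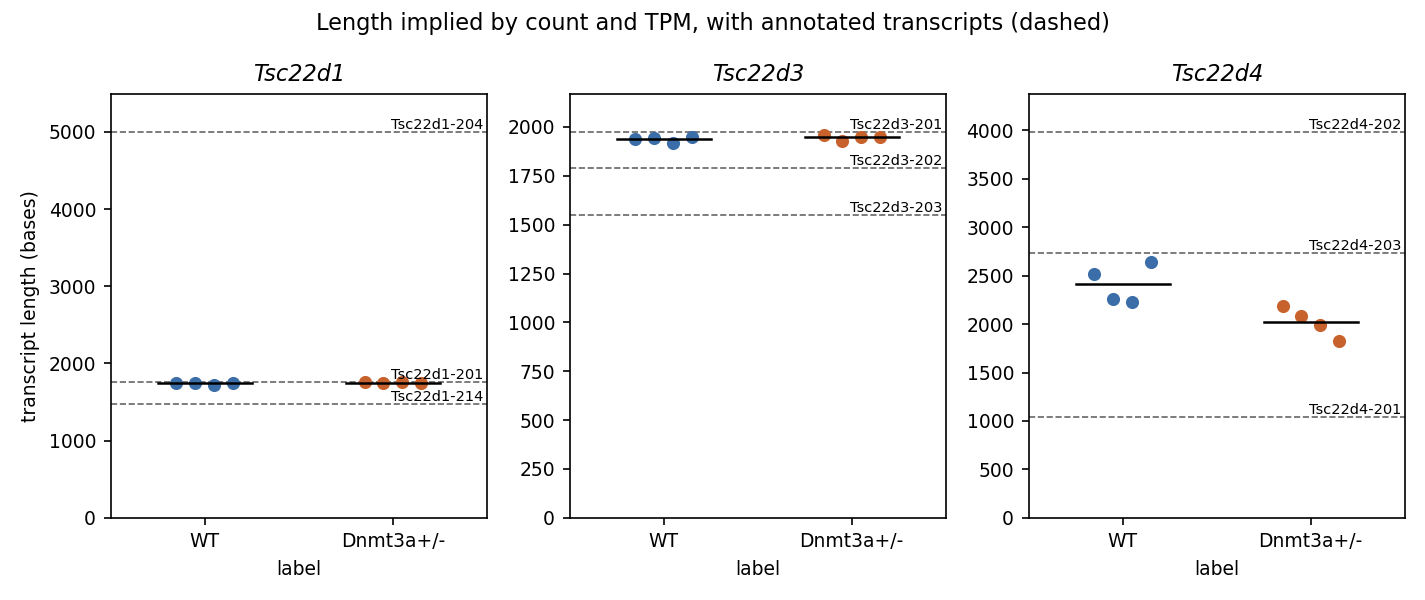
Transcript length in bases implied by count and TPM for Tsc22d1, Tsc22d3 and Tsc22d4, with 1 point per library in replicate order, a bar at each group mean and dashed lines at annotated transcript lengths. Tsc22d1 and Tsc22d3 lie at a narrow band near 1 transcript in both groups, and Tsc22d4 lies at 2232 to 2641 bases in WT and 1829 to 2190.0 in the libraries labelled Dnmt3a+/-.

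Partners of the long TSC22 proteins in cell volume control were present in part. Of 14 listed genes 7 were tested, all 7 with positive log2 fold changes (median 0.11), and 0 passed, either adjusted or at an unadjusted p under 0.05. Cab39, the scaffold that activates the kinases below WNK, was the most abundant at 50.4 to 64.2 TPM, and Nrbp1 was at 16.4 to 24.5 TPM. Both Wnk1 and Wnk4, kinases that sense chloride and osmotic stress, were detected, at 4.87 to 12.5 and 6.61 to 14.7 TPM. The kinase gene Stk39 had 0 to 7 counts and the cotransporter gene Slc12a2 0 to 11.

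Nrbp1, the pseudokinase partner, was the 1 gene of the list whose groups did not overlap. It was at 26.2, 29.1, 29.0 and 31.6 CPM (WT replicates 1 to 4) and at 33.0, 37.6, 32.0 and 32.2 CPM (libraries labelled Dnmt3a+/-, same order). The highest WT library and the lowest of the other group were less than 1 CPM apart. The log2 fold change was 0.22 (SE 0.11, edgeR adjusted p = 0.988), which did not pass, and 1.37% of all tested genes had CPM values that were higher under Dnmt3a+/- without overlap.

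**Figure D4:**
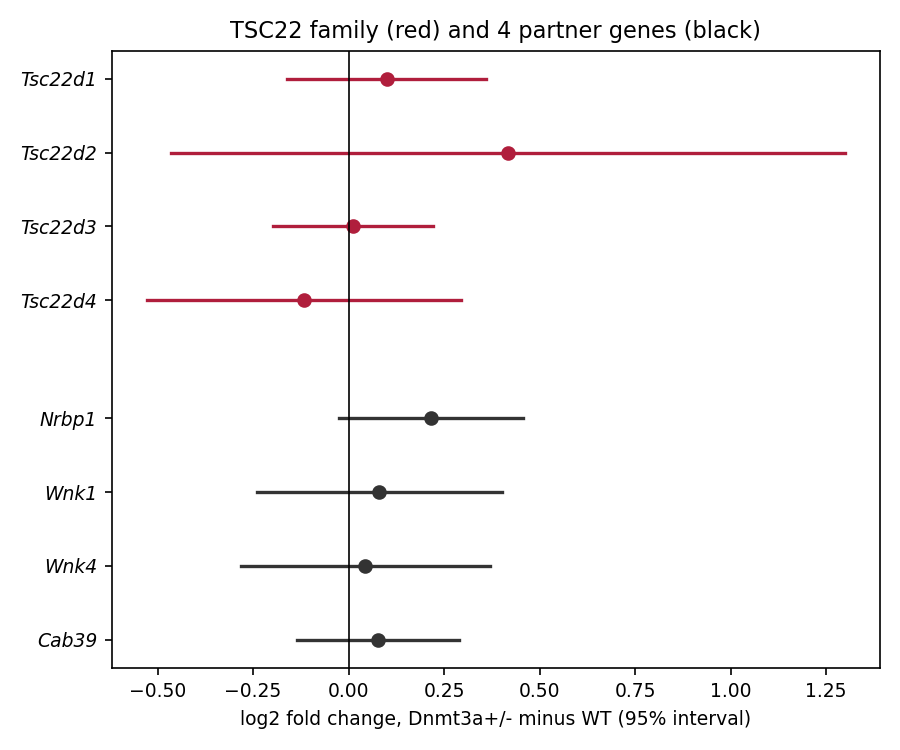
Log2 fold changes, libraries labelled Dnmt3a+/- minus WT, with 95% intervals from the edgeR fit, for the TSC22 family (red) and 4 tested genes of its partner pathway (black). The values of the family run from -0.12 (Tsc22d4) to 0.42 (Tsc22d2), and every interval shown includes 0.

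The glucocorticoid receptor and other listed genes that it induces were scarce beside GILZ. Nr3c1, the receptor, was at 0.25 to 0.76 TPM from 11 to 61 counts. Among 25 listed response genes 11 had enough counts to be tested, and the most abundant were Anxa1, annexin A1, at 2.74 to 7.25 TPM, Txnip, a thioredoxin inhibitor, at 1.51 to 4.78 and Tns1, tensin 1, at 0.50 to 2.20 TPM. All were below GILZ, at 35.1 to 44.7 TPM, in each library. Fkbp5, a standard readout of receptor activity, was at 0.08 to 0.32 TPM, and Cebpd had 0 counts in all 8 libraries, where counting error alone allows 3 per library.

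The 11 tested response genes split into 4 positive and 7 negative (median log2 fold change -0.08), and 0 passed. Txnip was the 1 member with an unadjusted p under 0.05, and lower in the libraries labelled Dnmt3a+/-, where 3.19% of all tested genes met that rule. It was at 5.99, 10.6, 9.10 and 6.19 CPM (WT replicates 1 to 4) and at 3.76, 3.96, 6.01 and 6.90 (libraries labelled Dnmt3a+/-, same order), with overlap (log2 fold change -0.62, SE 0.25, edgeR adjusted p = 0.972). The receptor's machinery was better represented, led by the chaperones Hspa8 at 41.2 to 65.4 TPM and Hsp90aa1 at 40.5 to 71.6 and by the corepressor Ncor1 at 34.6 to 48.3 TPM. Of its 11 tested genes 4 were positive and 7 negative (median -0.04), and 0 passed or had an unadjusted p under 0.05.

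Genes of proteins that GILZ binds or restrains included a kinase and a GTPase at substantial levels. Mapk3, a MAP kinase, was at 177 to 239.95 TPM, and the small GTPase gene Nras at 37.1 to 56.3 TPM. Of 8 tested genes 4 were positive and 4 negative (median -0.0034), and 0 passed. Nfkb1, a subunit of NF-kappaB, had 3 to 33 counts. It was at 0.76, 1.79, 1.19 and 0.98 CPM (WT replicates 1 to 4) and at 0.20, 0.68, 0.67 and 0.74 (libraries labelled Dnmt3a+/-, same order), so the groups did not overlap, as for 1.17% of tested genes in this direction. Its log2 fold change was -1.02 (SE 0.42, edgeR adjusted p = 0.972) and did not pass.

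Of the TGF-beta pathway, which gave Tsc22d1 its name, a pair of genes on the ligand side stood out. Tgfb1, the ligand stored in platelet alpha granules, was at 139 to 198 TPM, and Ltbp1, which holds it in latent form, at 52.7 to 81.8 TPM. The other 8 of the 10 listed ligand genes reached at most 3.61 TPM in any library, and 6 of them, Tgfb2 and Tgfb3 included, were too low to be tested. The receptor genes Tgfbr1 and Tgfbr2 were at 0.44 to 0.73 and 0.15 to 0.37 TPM. Among the SMAD genes and their inhibitors, Smurf2, a ubiquitin ligase, led at 12.7 to 20.8 TPM, ahead of the corepressor gene Ski at 2.51 to 5.91 and Smurf1 at 1.17 to 3.07 TPM.

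No gene of these TGF-beta lists passed. The medians of the log2 fold changes were 0.18 over 4 tested ligand genes, -0.31 over 4 receptor genes and 0.19 over 8 SMAD genes. Lrrc32, which docks latent TGF-beta on the platelet surface, was at 5.80, 6.01, 3.95 and 4.30 CPM (WT replicates 1 to 4) and at 12.4, 7.37, 8.55 and 3.99 (libraries labelled Dnmt3a+/-, same order). Its log2 fold change of 0.68 (SE 0.30, edgeR adjusted p = 0.986) had an unadjusted p under 0.05, as did 1.73% of tested genes in that direction. Eng, an auxiliary receptor, had a value of -0.75 (SE 0.33, edgeR adjusted p = 0.987). It too had an unadjusted p under 0.05, as did 3.19% of tested genes in the lower direction.

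FOXO factors, known to drive GILZ, were led by Foxo3 at 2.72 to 5.23 TPM. Its CPM values were 15.8, 22.8, 23.1 and 22.2 (WT replicates 1 to 4) and 24.2, 29.6, 25.8 and 24.1 (libraries labelled Dnmt3a+/-, same order). The groups did not overlap, as for 1.37% of tested genes in this direction, and WT replicate 1 was lowest, as it was for Tsc22d1 and Tsc22d3. The log2 fold change was 0.31 (SE 0.15, edgeR adjusted p = 0.987). Of 10 tested genes in the list 8 were positive and 2 negative (median 0.20), and 0 passed or had an unadjusted p under 0.05. Cat, catalase, was the most abundant at 527 to 668 TPM, followed by Gadd45a at 63.4 to 119 and Ccng2, cyclin G2, at a mean of 14.5 TPM.

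Genes whose log2 CPM followed each member most closely over the 8 libraries were sought among 2742 genes with a mean of at least 10 CPM, by Pearson's r. For Tsc22d1 these were Lrrc70, a leucine-rich repeat gene, Wdfy1, a phosphoinositide-binding adaptor, Cnbp, a nucleic acid binding zinc finger, Crebrf and Katnbl1, with r from 0.981 to 0.986. Likeness of this order was common, since 167 genes had an r over 0.9 with Tsc22d1 and 88 an r under -0.9. The genes share their libraries and scaling with Tsc22d1.

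For Tsc22d3 the closest were Tut7, a uridylyltransferase, Cul4b, a ubiquitin ligase scaffold, and Purb (r from 0.9498 to 0.965). For Tsc22d4 they were Nrgn, neurogranin, Fkbp8 and the cochaperone gene Dnajb2 (r from 0.965 to 0.967). The library labelled Dnmt3a+/- replicate 4 held the highest CPM of Tsc22d3 and the lowest of Tsc22d4. For Tsc22d2, with 5 to 43 counts, the closest were Calcrl, Ccser2 and Il15 (r from 0.920 to 0.950).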

How the data were processed

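Platelet RNA of 8 mice was measured by stranded, polyadenylated RNA sequencing, per the labels' protocols. For each gene and library the authors deposited an estimated count, already a whole number, and a TPM value. The processing notes of the submitters list cutadapt, the aligner STAR, RSEM and DESeq2 alongside build mm10; versions, annotation release and strand setting are not given in the sources used here. Identifiers matched GENCODE M21 (GRCm38) for 55141 of 55487 genes.

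Counts were tested with edgeR 4.0.16 in R 4.3.3 (TMM, filterByExpr with a minimum count of 10 and a minimum total of 15, quasi-likelihood F test) over 7362 genes, with Benjamini-Hochberg adjustment at 0.05. Each standard error was the log2 fold change divided by the root of F. RSEM-type TPM uses a length averaged over a gene's transcripts, so a TPM moves with the estimated transcript mix. Implied lengths used a Theil-Sen line through genes with 1 transcript and at least 100 counts, and exact two-sided permutation tests over 70 arrangements, adjusted over 4 members. Reads shared between transcripts were divided by the authors' estimation. No annotated gene overlaps a member. Replicates were separate mice, and no pair of libraries matched within sampling noise (chi-square over degrees of freedom at least 12.2). The scripts were tested on simulated data.

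Members and lists were chosen with earlier results of these data known. Named genes were the members, the most abundant genes, the 3 most abundant of each list and the genes most like each member. The rule also took up to 2 per list and direction with the smallest unadjusted p under 0.05. Wnk1, Wnk4, Stk39, Slc12a2, Nr3c1, Fkbp5, Cebpd, Tgfbr2, Tgfb2, Tgfb3, Foxo3, Cd3e, Cd3g, Camp and Elane fall outside this rule. They were named after their values were seen. Alternatives were other scaling factors, no filter, DESeq2 1.42.0, limma 3.58.1 on TPM, a replicate block, no mitochondrial genes, other calibrations and leaving out each library. Erythroid gene Ahsp was not analysed here, and some genes that the naming rule takes are not reported here.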

Additional observations from a re-analysis of the deposited data

Results flagged for a closer look

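Tsc22d2 in TPM was at 1.01 in the library labelled Dnmt3a+/- replicate 1, far from the other 3 of that group at 0.18, 0.30 and 0.30. The gap to its neighbour was 0.855 of the group's range, above Dixon's critical value for 4 samples. In CPM the same library held 1.65, inside the range of its group, whose highest was 1.87, and its implied length of 1889 bases was the shortest of the 8. The value rests on 25 counts. Chance alone puts about 1 in 20 groups past this limit, and 24 sets of 4 values were examined.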

How the results depend on the processing

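No member of the family passed the threshold in any of the 16 alternatives tried for the test between labels, with adjusted p-values from 0.774 to 0.9997. The log2 fold changes of Tsc22d1 and Tsc22d2 stayed positive in all of them, and leaving out 1 library at a time gave 0.03 to 0.17 and 0.11 to 0.66. Tsc22d3 turned negative without WT replicate 1 (-0.0318) and without the library labelled Dnmt3a+/- replicate 4 (-0.0246), within -0.0318 to 0.0464 over single omissions. Tsc22d4 turned positive with limma on log2(TPM + 1) (0.17) and log2(TPM + 0.1) (0.18). It also did so without the library labelled Dnmt3a+/- replicate 4 (0.0125), within -0.22 to 0.0125 over single omissions. TPM is divided by a length, which for Tsc22d4 was shorter in those labelled Dnmt3a+/-. The limma runs also used another model and no scaling factors, and the part of each in the sign was not tested. Over all genes, the number called was 250 with no filter on low counts, 15 with DESeq2, 135 without WT replicate 1 and 1 without the library labelled Dnmt3a+/- replicate 2, so 0 to 135 over single omissions; the causes were not tested. With a replicate block 0 genes were called, and the blocked values were 0.10 for Tsc22d1, 0.50 for Tsc22d2, 0.01 for Tsc22d3 and -0.14 for Tsc22d4. Deviations of same-numbered libraries correlated at -0.168 to 0.158, within the -0.241 to 0.226 of differently numbered ones. So few pairs cannot settle whether replicate numbers paired the samples.

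The rank of Tsc22d1 by TPM, 18, became 10 by CPM and 14 without mitochondrially encoded genes, by their construction, and was 15 to 18 over single omissions. The shorter implied length of Tsc22d4 kept its direction in all 12 alternatives, with -316 to -452 bases over single omissions. The lowest adjusted p was 0.114, the lowest open to a member that separated alone. With a replicate block the exact p was 0.125, the smallest that sign changes of so few pairs allow. The difference of Tsc22d1 turned to -0.74 bases with a least-squares line. That of Tsc22d2 turned to -747, -780, -677 and -356 bases without WT replicates 1 and 2 and without the libraries labelled Dnmt3a+/- replicates 2 and 4, the cause not tested; single omissions gave 0.73 to 8.97 bases for Tsc22d1, -780 to 1452 for Tsc22d2 and 3.02 to 14.3 for Tsc22d3. A calibration by plain ratio was added after the data were seen. Tsc22d2 is limited by depth, at 5 to 43 counts.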
